A study of Mus musculus with 3 samples.

Results

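Hdac1 is the target of the small interfering RNA (siRNA) pool described here. It encodes a class I histone deacetylase, which removes acetyl groups from the tails of histones and works inside the SIN3, NuRD and CoREST corepressor complexes. Its close paralogue Hdac2 sits in the same complexes and can replace it in many cells. Inhibitors of these enzymes are known to help fibroblasts become pluripotent, and deacetylation is one of the steps that keep pericentromeric satellite repeats in a compact, silent state.

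The members are the 3 libraries labelled siHdac1, chosen by their column names, of 129 libraries with counts in the series. Primary mouse embryonic fibroblasts of the BL6 strain, at an early passage, carried rtTA and a lentiviral tet-STEMCCA cassette, which on doxycycline expresses the reprogramming factors Oct4, Sox2, Klf4 and c-Myc. Cells were transfected with 40 nM of pooled siRNA, doxycycline was added 24 hours later, and the medium held a GSK3 inhibitor, an Alk5 inhibitor, ascorbic acid and LIF. Per the methods of the study, RNA of transfected cells was taken on day 6. Every group thus shares the cassette and the medium. The controls are 3 libraries with a non-targeting siRNA (nt) and 5 mock-transfected libraries (Mock), and the other siRNA libraries, 95 in number, served as a further reference. In replicates 1 and 2 there are 2 Mock columns of the same name. The labels do not say whether these are separate transfections, and the fit took all 5 as separate libraries. The 3 libraries labelled sip53 were compared as 1 named siRNA against another, and untransfected cells from Day00 to Day06 gave the course of reprogramming. All members are bulk cultures, so fewer cells of a type and less RNA per cell cannot be told apart.

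Libraries were made by CEL-Seq2, which counts the 3′ ends of transcripts by unique molecular identifiers, and the 3 replicates are 3 sequenced pools. The libraries labelled siHdac1 were shallow, with 33709, 34279 and 72690 counts. The nt libraries of the same pools held 75100, 80136 and 143156 counts, and the Mock libraries held 38925 to 83089. Per the study, each siRNA was transfected 3 times. The sources used here do not say whether the 3 transfections came from separate cell preparations. The p-values rest on the spread between libraries of the same condition, pooled over all 42 conditions, untransfected days among them. They may not hold the spread between cell preparations. Of 8 fibroblast markers all had counts, and the libraries labelled siHdac1 summed to 1153 to 1672 CPM of them against 1332 to 2098 CPM in nt and 1216 to 2825 CPM in Mock. Markers of macrophages and erythroid cells had 0 counts in all 3 libraries labelled siHdac1, where the upper limit that a count of 0 allows was 21.3 CPM of all counts, against 6 and 7 counts in nt. Endothelial, skeletal muscle, and Schwann and neural crest markers had 1, 4 and 2 counts there and 4, 11 and 1 in nt.

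The sequences of 2 siRNAs of the pool are shown because they define the intended target. Per the methods each pool held 3 siRNAs, and the third is not analysed here. The guide strands are printed 5′ to 3′ with bases 2 to 8, the seed, in capitals. The first matches exon 3 of Hdac1 at chr4:129529003-129529021 on the minus strand and the second exon 6 at chr4:129522426-129522444 on the minus strand, both in GRCm38 and both in the coding sequence, and each site is held by 2 of the 7 annotated Hdac1 transcripts.
siHdac1 guide 1: gUGGUACUuggucaucucctc
siHdac1 guide 2: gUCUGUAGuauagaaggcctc
The 19-base target sites read as follows in the sense strand of the transcript.
site of guide 1: ggagatgaccaagtaccac
site of guide 2: ggccttctatactacagac
Both sites are also found in full in the Hdac1-like pseudogenes Gm10093 and Gm4864, and that of guide 2 also in AC125456.1. The closest sites in Hdac2 carry 4 and 5 mismatches, and those in Hdac3 carry 4 and 6.

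The target gave few counts and no steady direction. Hdac1 had 2, 2 and 14 counts in the libraries labelled siHdac1 and 6, 10 and 7 counts in nt, while the Mock libraries had 1 to 6. As CPM of all counts this was 128 against 77.1 in nt and 72.0 in Mock, and the ratio to nt was 1.66 with an exact 95% counting interval of 0.844 to 3.22. Relative to the other siRNA libraries the ratio was 1.84 (1.08 to 2.93). Within pools the libraries labelled siHdac1 were at 59.3, 58.3 and 193 CPM of all counts against 79.9, 125 and 48.9 in nt, so replicates 1 and 2 were below nt and replicate 3 above it. By edgeR the log2 fold change over nt was 0.62 with an adjusted p of 0.699, and it turned to -0.48 without siHdac1 replicate 3 (adjusted p = 0.865). The last 400 bases of Hdac1 share 91.6% of their sequence words with the pseudogene Gm10093, so counts of this pair cannot be told apart. Summed over both genes, the libraries labelled siHdac1 had 9, 6 and 24 counts, or 0.0267, 0.0175 and 0.0330% of all counts. In nt the sum was 10, 19 and 19 counts, or 0.0133, 0.0237 and 0.0133%. The ranges overlap for nt (edgeR, log2 fold change 0.71 ± 0.36 SE, adjusted p = 0.449), and over the other siRNA libraries the sum was at 1.01 ± 0.28 (edgeR, adjusted p = 0.0263). That call was lost without siHdac1 replicate 1 or without replicate 3 (adjusted p = 0.153 and 0.507). A change of the targeted transcript against nt was not detectable at this depth in either direction, and every direction below belongs to libraries so labelled.

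Other deacetylases gave few counts. Hdac2 had 7, 2 and 14 counts against 7, 9 and 21 in nt, a ratio of 1.32 (exact 95% counting interval 0.748 to 2.28), and edgeR gave an adjusted p of 0.807. Hdac3 and Hdac8 had 0 counts in the libraries labelled siHdac1 and 2 each in nt, both at or under the limit that a count of 0 allows, so no fold is given. None of the 7 class II and class IV deacetylases passed the filter on low counts. Hdac6, with 4 counts in the libraries labelled siHdac1 and 2 in nt, had a ratio of 4.20 over the other siRNAs (exact 95% counting interval 1.10 to 11.4), and limma on the deposited log2 values, which covered 3 of the 7, called it higher there. Among partners of Hdac1, 6 of 15 SIN3 genes, 4 of 9 NuRD genes and 1 of 9 CoREST and MiDAC genes could be tested, and both edgeR and DESeq2 called 0 of them against nt, Mock or the other siRNAs. Against nt, 1 of them had an unadjusted p under 0.05 by either tool, the NuRD helicase Chd4, which edgeR put at 1.68 ± 0.53 on the log2 scale with an adjusted p of 0.0920. It was at 314, 171 and 130 CPM against 24.5 to 89.7 CPM in nt, and limma on the deposited log2 values called it higher.

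Against nt, 32 of 3013 genes tested (1.06%) passed an adjusted p of 0.05 in edgeR's quasi-likelihood test, 11 higher (0.365%) and 21 lower (0.697%) in the libraries labelled siHdac1. The higher genes included satellite-like repeat genes, the ribosomal RNA-like transcript Gm42418, a copy of Set and the chaperone Hsp90ab1. The lower genes included the nucleolar protein Npm1 and its copies, ribosomal protein genes and their copies, the antioxidant enzyme Prdx1, the respiratory chain genes Uqcrh, mt-Nd1 and mt-Cytb, and the calcium-binding protein S100a6. All 32 had the same sign in each replicate, and for 29 of them the values of the libraries labelled siHdac1 and nt did not overlap, which held for 13.2% of all tested genes. Both counts were read from the libraries that gave the calls, so neither is separate support for them. From Mock 16 of the 32 did not overlap, against 7.83% of all tested genes. The number of calls rested on single libraries. It was 14 without siHdac1 replicate 1, 21 without siHdac1 replicate 2 and 21 without nt replicate 1, and 4 in a fit that left out the replicate block. With another scaling of the libraries, the size factors of RLE, the split was 20 higher and 17 lower, and with DESeq2 23 and 22.

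**Figure D1:**
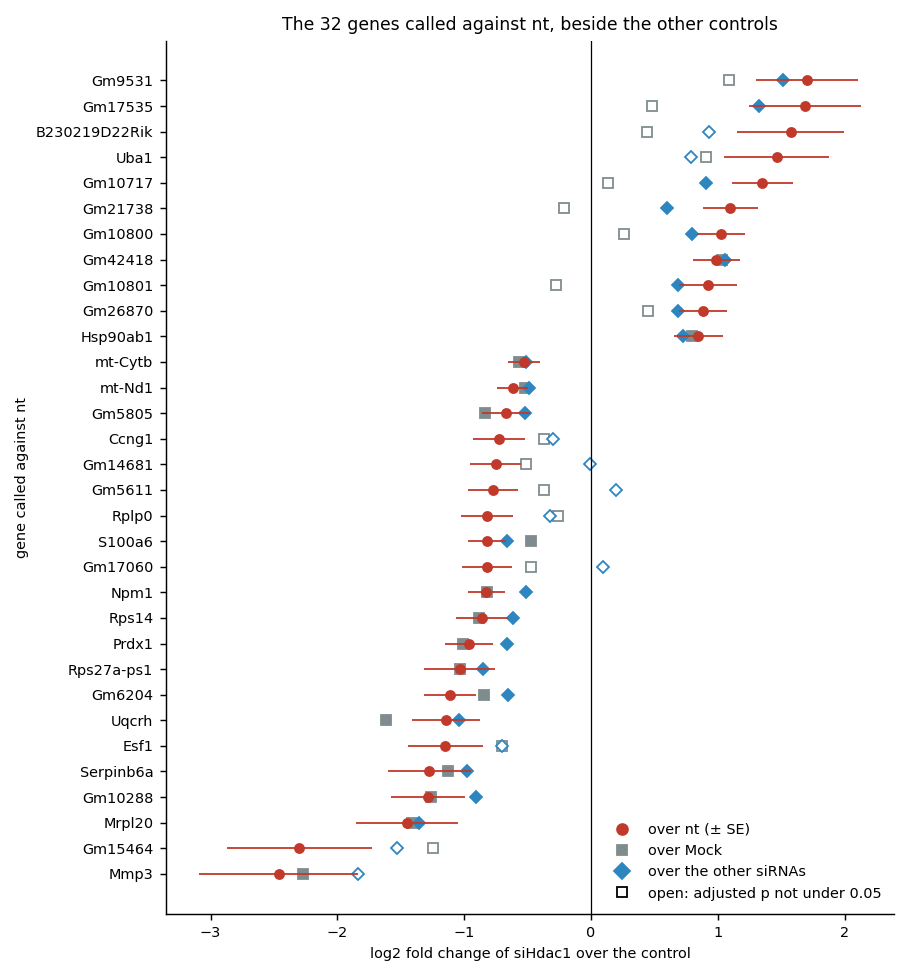
Log2 fold changes (horizontal axis) of the 32 genes called against nt, with red circles and SE bars for siHdac1 over nt, grey squares over Mock and blue diamonds over the other siRNAs; filled symbols passed an adjusted p of 0.05. Of the 11 higher genes only Gm42418 and Hsp90ab1 have a filled square, whereas 14 of the 21 lower genes do.

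Calls were then set against Mock and the other siRNAs. Of the 11 higher genes, 2 were also called higher against Mock (0.730% of tested genes were), and 9 were called higher against the other siRNAs (1.10%). Of the 21 lower genes, 14 were also called lower against Mock (2.16%) and 13 against the other siRNAs (1.26%). These comparisons share the libraries labelled siHdac1. In all, edgeR called 87 genes (2.89%) against Mock, 22 higher and 65 lower, and 71 (2.36%) against the other siRNAs, 33 higher and 38 lower. Without siHdac1 replicate 1 these counts were 40 and 15.

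Npm1 encodes nucleophosmin, an abundant nucleolar protein of ribosome assembly. Its level was 2650, 3378 and 4385 CPM in the libraries labelled siHdac1, 5729, 5997 and 6977 CPM in nt, and 4958 to 7120 CPM in Mock. No library labelled siHdac1 reached the lowest nt or Mock library. The log2 fold change was -0.83 ± 0.15 over nt (edgeR, adjusted p = 0.000100), -0.82 ± 0.14 over Mock (edgeR, adjusted p = 5.21e-06) and -0.51 ± 0.12 over the other siRNAs (edgeR, adjusted p = 0.00192). Of the 33 siRNAs, only siWdr5 had a lower mean, at 2218 CPM, and the median of the others was 5115 CPM. In untransfected cells Npm1 was at 792 CPM on Day00, 3857 CPM on Day05 and 2033 CPM on Day06.

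The processed pseudogenes Gm5611 and Gm14681, both also called lower against nt, share at least 50% of the sequence words of their 3′ ends with Npm1. Summed, the 3 genes took 0.611, 0.721 and 0.766% of counts in the libraries labelled siHdac1 and 1.14, 1.23 and 1.22% in nt. On the log2 scale the sum stood at -0.81 ± 0.15 over nt (edgeR, adjusted p = 7.36e-05) and at -0.65 ± 0.14 over Mock (edgeR, adjusted p = 0.000383), where the call was lost without siHdac1 replicate 1 (adjusted p = 0.0860). Over the other siRNAs it was at -0.24 ± 0.11 with an adjusted p of 0.315. Over sip53 the sum was at -0.09 with an adjusted p of 0.871, at 0.747, 0.617 and 0.744% of counts in sip53, so these groups overlap. Over the other siRNAs the unsummed pseudogenes were at 0.19 and -0.01, so the call on Npm1 against the other siRNAs is lost when the copies are counted with it.

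Several ribosomal protein genes or copies were among the lower genes. Of 75 tested genes with a ribosomal protein symbol, edgeR called 2 lower and 0 higher against nt (Rplp0 and Rps14), where 0.697% of all genes tested were called lower, with a median log2 fold change of -0.19 beside -0.04 over all genes tested. Against Mock 8 were lower (2.16% of all were) and 1, Rpl6, higher, with a median of -0.24, and against the other siRNAs 4 were lower (1.26% of all were) and 0 higher. Rps14 encodes a protein of the small subunit, and its processed pseudogenes Gm6204 and Gm5805 were also called. The 3 together took 0.214, 0.187 and 0.274% of counts in the libraries labelled siHdac1, 0.442, 0.373 and 0.421% in nt, and 0.273 to 0.449% in Mock. The log2 fold change of the sum was -0.90 ± 0.16 over nt (edgeR, adjusted p = 7.36e-05), -0.90 ± 0.15 over Mock (edgeR, adjusted p = 2.92e-06) and -0.64 ± 0.13 over the other siRNAs (edgeR, adjusted p = 0.000225), where the call was lost without siHdac1 replicate 1 (adjusted p = 0.0761). Gm6204 kept its call against nt under all 17 alternatives.

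The called pseudogene Gm10288 shares all sequence words of its 3′ end with Rpl11, a large subunit protein that also binds Mdm2. Rpl11 with 3 such copies took 0.0504, 0.0758 and 0.124% of counts in the libraries labelled siHdac1 and 0.154, 0.165 and 0.207% in nt. The groups do not overlap, and the Mock range of 0.108 to 0.274% overlaps only the highest library labelled siHdac1. Its sum stood at -1.08 ± 0.20 on the log2 scale over nt (edgeR, adjusted p = 7.36e-05), -1.16 ± 0.19 over Mock (edgeR, adjusted p = 1.75e-06) and -1.02 ± 0.21 over sip53 (edgeR, adjusted p = 0.000695).

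Other ribosomal calls were less even across controls. Rplp0, a protein of the ribosomal stalk, with its copies was lower than nt by -0.88 ± 0.18 (edgeR, adjusted p = 0.00106), a call lost without siHdac1 replicate 3 (adjusted p = 0.0997), yet at -0.20 ± 0.19 over Mock with an adjusted p of 0.658. The pseudogene Gm15464 lost its call once summed with Rps23 (edgeR, log2 fold change -0.79, adjusted p = 0.179). Rps27a-ps1 stood at 209, 273 and 471 CPM against 600, 628 and 768 CPM in nt and was called lower in each of the 4 comparisons. As a whole, genes named as ribosomal proteins took 3.70, 3.88 and 5.15% of counts in the libraries labelled siHdac1, 4.52, 4.47 and 5.75% in nt and 4.22 to 5.68% in Mock. The ranges overlap, and within each pool the library labelled siHdac1 was below the nt library and every Mock library. Mrpl20, of the mitochondrial ribosome, was called lower at a log2 fold change of -1.45 ± 0.40, and Esf1, a factor of ribosomal RNA processing, at -1.15 ± 0.30 (edgeR, adjusted p = 0.0418 and 0.0168). Mrpl20 was the lowest of the 33 siRNAs and was also called against Mock and the other siRNAs, and Esf1 was called against neither. Against nt, Mrpl20 and Rps27a-ps1 were not called without any 1 of the libraries labelled siHdac1, and Esf1 was not called without siHdac1 replicate 1 or 2. Leaving out nt replicate 1 ended all 3 calls, as nt replicate 2 did for Rps27a-ps1 and nt replicate 3 for Mrpl20.

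**Figure D2:**
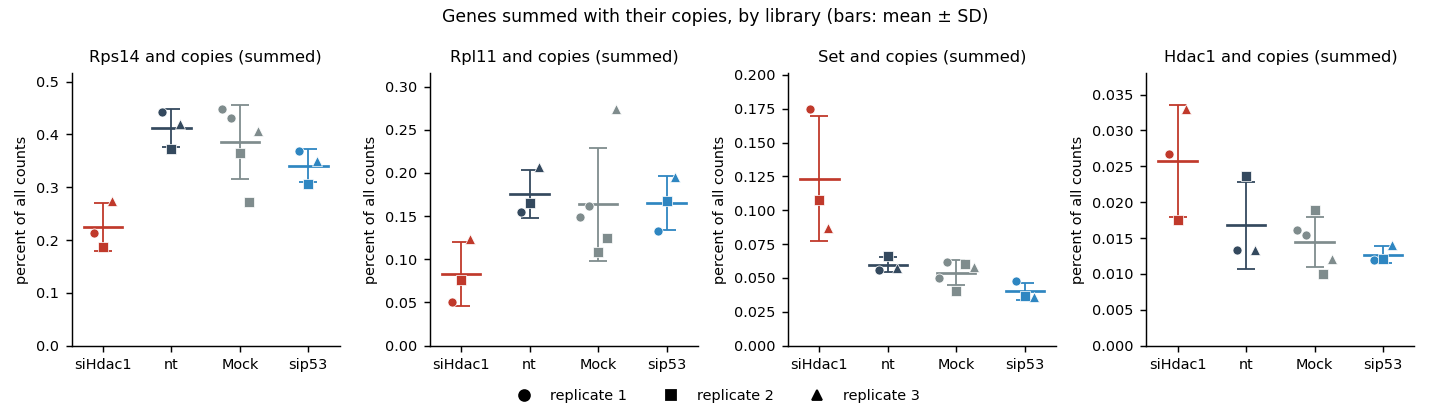
Share of all counts (vertical axes, percent) taken by 4 genes summed with the copies that share their 3′ ends, in each library of siHdac1, nt, Mock and sip53; marker shape gives the replicate and bars the mean ± SD. Rps14 and Rpl11 lie lower in siHdac1 than in nt, Set lies higher than in every control library, and the Hdac1 sum overlaps nt.

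Prdx1, a peroxiredoxin that removes hydrogen peroxide, was at 628, 1092 and 1559 CPM in the libraries labelled siHdac1, 1898, 1810 and 2867 CPM in nt and 1785 to 2672 CPM in Mock. The groups do not overlap with either control. Its log2 fold change was -0.96 ± 0.19 over nt (edgeR, adjusted p = 0.000317) and -1.01 ± 0.18 over Mock (edgeR, adjusted p = 1.93e-05), and both calls held when the copies Gm21399 and Gm7204 were added. Over sip53 it was at -0.35 with an adjusted p of 0.497. It was the only one of 12 tested antioxidant response genes called in either direction against nt by edgeR (1.06% of all genes tested were), and the median of the list was -0.02.

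Uqcrh, the hinge subunit of respiratory complex III, was at 384, 478 and 439 CPM, below every nt library (852 to 1232 CPM) and every Mock library (1043 to 1600 CPM). Its log2 fold change was -1.14 ± 0.27 over nt (edgeR, adjusted p = 0.00579), -1.62 ± 0.25 over Mock (edgeR, adjusted p = 6.19e-07) and -1.19 over sip53 (edgeR, adjusted p = 0.00478). Without siHdac1 replicate 1 it lost the call against nt.

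Of 15 tested mitochondrially encoded transcripts, edgeR called 2 lower against nt (0.697% of all genes tested were) and 0 higher, with a list median of -0.10. DESeq2 called the same 2 lower and mt-Co1, of complex IV, higher against nt and Mock, where edgeR put it at 0.36 and 0.25 with adjusted p of 0.161 and 0.250. mt-Nd1, a subunit of complex I, was at 18030, 22352 and 19799 CPM against 25725 to 34888 CPM in nt (edgeR, log2 fold change -0.62 ± 0.12, adjusted p = 0.000365). mt-Cytb, of complex III, was at -0.53 ± 0.13 (edgeR, adjusted p = 0.00825) and lost its call without siHdac1 replicate 1, siHdac1 replicate 2 or nt replicate 1. By edgeR 5 of the 15 were lower against Mock (2.16% of all were), mt-Co2, mt-Co3 and mt-Atp6 beside these. Against the other siRNAs edgeR also called 5 lower (1.26% of all were). Against nt, limma on the deposited log2 values called 4 lower, mt-Atp6 and mt-Co2 beside mt-Nd1 and mt-Cytb. The total share of mitochondrial counts was 23.6, 23.5 and 21.4% in the libraries labelled siHdac1, 26.3, 24.4 and 22.8% in nt and 22.9 to 28.6% in Mock, lower than nt in each pool though the ranges overlap.

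S100a6, a small calcium-binding protein abundant in fibroblasts, was at 2162, 2013 and 2566 CPM against 3275 to 4583 CPM in nt and 2791 to 3546 CPM in Mock. It was called lower than nt (edgeR, log2 fold change -0.82 ± 0.15, adjusted p = 0.000100), Mock (-0.48) and the other siRNAs (-0.66). Serpinb6a, an intracellular protease inhibitor, was at 453, 68.2 and 162 CPM against a mean of 545 CPM in nt, and the groups overlap (edgeR, log2 fold change -1.28 ± 0.33, adjusted p = 0.0168). Without siHdac1 replicate 2, siHdac1 replicate 3 or nt replicate 2 it was not called. Mmp3, a secreted matrix protease, was at 0, 68.2 and 48.7 CPM against 216 to 253 CPM in nt and 124 to 404 CPM in Mock. Its log2 fold change over nt was -2.46 ± 0.63 (edgeR, adjusted p = 0.0156), and without any 1 of the libraries labelled siHdac1, or without nt replicate 3, it was not called.

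Ccng1, a p53 target of the cyclin G family, was the only gene called by edgeR among 10 tested cell cycle inhibitors and p53 targets against nt, where 0.697% of all genes tested were called lower. An unadjusted p under 0.05 was found for 5 of the 10 and for 344 of the 3013 genes tested. The list median was -0.54 over nt and -0.47 over Mock, and limma on the deposited log2 values called 0 of 19 against nt, with Ccng1 at an adjusted p of 0.235 and 5 at an unadjusted p under 0.05. Ccng1 was at 767, 682 and 893 CPM against 1225 to 1481 CPM in nt, and the Mock range of 894 to 1241 CPM lay above as well (edgeR, log2 fold change over nt -0.73 ± 0.21, adjusted p = 0.0472). The call was lost with RLE size factors (adjusted p = 0.0955), without siHdac1 replicate 1 or 2 and without any 1 of the nt libraries, and over Mock it was at -0.37 with an adjusted p of 0.379. Cdkn1a, which encodes the inhibitor p21 and is a known responder to deacetylase inhibitors, was at 488, 546 and 568 CPM against 343 to 404 CPM in nt and 254 to 800 CPM in Mock. The nt groups do not overlap, but the log2 fold change of 0.55 ± 0.27 had an adjusted p of 0.415 by edgeR. Of the 13 genes listed as rising with deacetylase inhibitors 4 could be tested, and edgeR, DESeq2 and limma on the deposited log2 values called 0 of them against nt, with 2 at an unadjusted p under 0.05 by edgeR. Perp, a p53 target of cell junctions, was at 34.9, 34.1 and 16.2 CPM, under the limit of 3 counts in each library. This was 1 count in each library, against 7, 9 and 17 counts in nt. Over the other siRNAs the ratio was 0.178 (exact 95% counting interval 0.0366 to 0.522) and edgeR called it lower (adjusted p = 0.0125), as did limma on the deposited log2 values, whereas DESeq2 did not (adjusted p = 0.100). Over nt the ratio was 0.193 (0.0378 to 0.615) with an adjusted p of 0.0846 by edgeR. Without any 1 of the libraries labelled siHdac1 its call against the other siRNAs was lost.

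**Figure D3:**
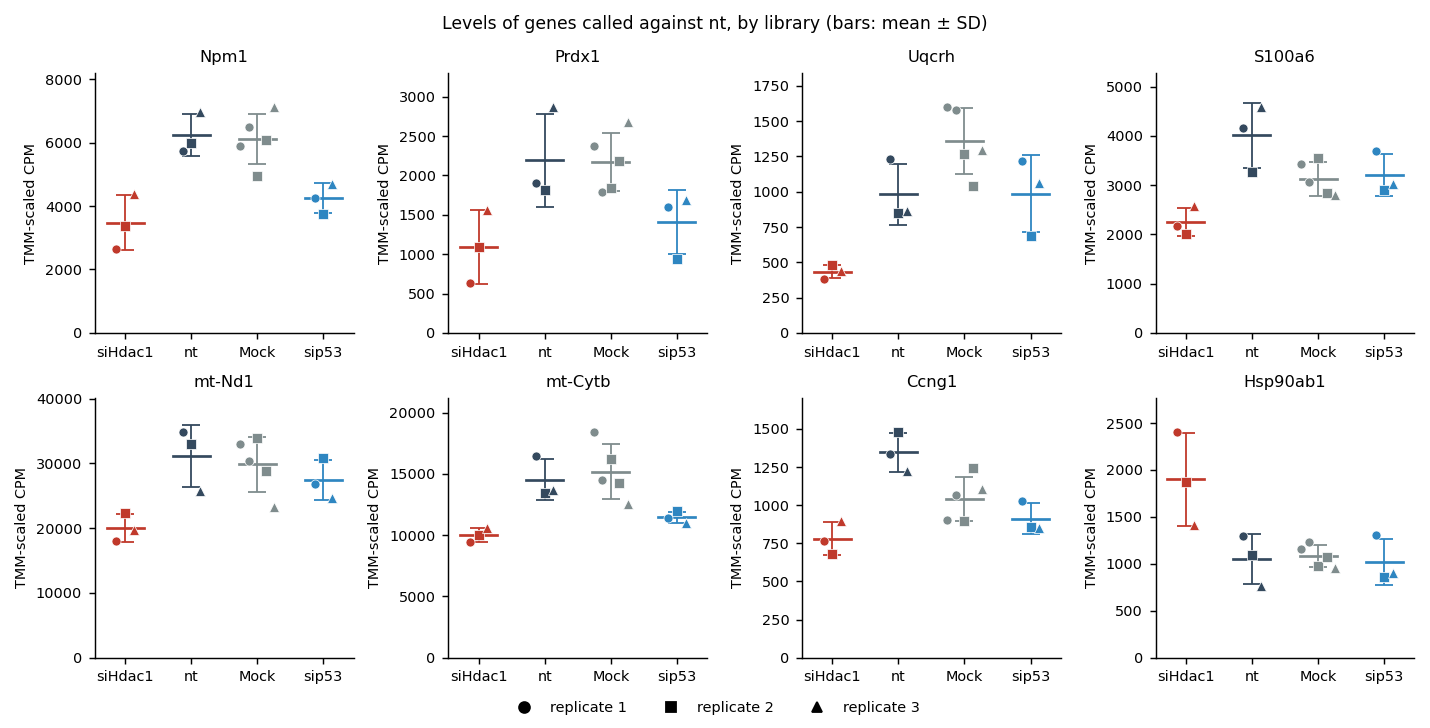
TMM-scaled CPM (vertical axes) of 8 genes called against nt in each library of siHdac1, nt, Mock and sip53; marker shape gives the replicate and bars the mean ± SD. Npm1, Prdx1, Uqcrh, S100a6, mt-Nd1, mt-Cytb and Ccng1 lie below all nt libraries in siHdac1, and Hsp90ab1 lies above them.

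Among higher genes, the copy family of Set and the cytosolic chaperone Hsp90ab1 stood above all controls. Set encodes a histone chaperone that binds histone tails and hinders their acetylation. The called gene Gm9531 is a transcribed processed pseudogene, and all sequence words of the 3′ end of Gm9531 are held by Set. Summed, the pair had 59, 37 and 63 counts in the libraries labelled siHdac1, or 0.175, 0.108 and 0.0867% of all counts. In nt these shares were 0.0559, 0.0661 and 0.0573%, and in Mock 0.0400 to 0.0617%. Each library labelled siHdac1 thus lay above each control library. As a log2 fold change the pair was at 0.93 ± 0.20 over nt (edgeR, adjusted p = 0.00203), 0.99 ± 0.20 over Mock (edgeR, adjusted p = 0.000155), 0.90 ± 0.15 over the other siRNAs (edgeR, adjusted p = 9.28e-06) and 1.46 ± 0.23 over sip53 (edgeR, adjusted p = 3.78e-06). Without siHdac1 replicate 1, which had the highest share, the calls over nt, Mock and the other siRNAs were lost (adjusted p = 0.249, 0.0736 and 0.0761) and that over sip53 was kept.

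Hsp90ab1, the constitutive cytosolic HSP90, was at 2406, 1877 and 1413 CPM against 1299, 1092 and 768 CPM in nt and 955 to 1236 CPM in Mock. Within each pool the library labelled siHdac1 was the higher, and its mean was the highest of the 33 siRNAs. On the log2 scale it was higher by 0.85 ± 0.19 over nt (edgeR, adjusted p = 0.00425), 0.80 ± 0.18 over Mock (edgeR, adjusted p = 0.00170) and 0.72 ± 0.14 over the other siRNAs (edgeR, adjusted p = 0.000167). Without siHdac1 replicate 1 or without nt replicate 3 the call against nt was lost. By edgeR and DESeq2 it was the 1 called gene of 10 tested heat shock proteins against nt (0.365% of all genes tested were called higher by edgeR), where the list median was 0.14, and limma on the deposited log2 values also called Hspe1 lower.

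Hspd1 and Hspe1, the mitochondrial chaperonin pair encoded head to head, moved apart. Hspd1 was at 767, 409 and 633 CPM and rose over the other siRNAs (edgeR, log2 fold change 1.13 ± 0.22, adjusted p = 0.000105), and Hspe1 was at 279, 239 and 520 CPM and fell (edgeR, -0.79 ± 0.21, adjusted p = 0.0178). Hspd1 was also called higher than Mock (edgeR, log2 fold change 1.56, adjusted p = 7.15e-05). Against nt they stood at 0.72 and -0.79 with adjusted p of 0.193 and 0.113 by edgeR.

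B230219D22Rik, an uncharacterised gene annotated as protein-coding, and Uba1, the ubiquitin-activating enzyme, were called higher against nt alone among the 3 references of nt, Mock and the other siRNAs (edgeR, log2 fold change 1.57 ± 0.42 and 1.46 ± 0.41, adjusted p = 0.0269 and 0.0474). Uba1 stood at 593, 205 and 146 CPM in the libraries labelled siHdac1 and at 216, 120 and 24.5 CPM in nt, so the groups overlap, and without siHdac1 replicate 1, nt replicate 2 or nt replicate 3 it was not called. Against nt, B230219D22Rik was not called without siHdac1 replicate 1 or 3 or without nt replicate 1 or 3. Against sip53, edgeR also called B230219D22Rik higher.

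Gm42418 was higher than in each control. It is an annotated noncoding transcript of chromosome 17 (GRCm38, 39846958 to 39848788, plus strand) whose sequence comes from a ribosomal RNA locus. It took 3.61, 4.10 and 3.55% of all counts in the libraries labelled siHdac1, 1.74, 2.10 and 1.70% in nt and 0.990 to 2.30% in Mock. Each library labelled siHdac1 was above every control library. The log2 fold change was 0.99 ± 0.18 over nt (edgeR, adjusted p = 0.000100), 1.03 ± 0.16 over Mock (edgeR, adjusted p = 6.19e-07), 1.06 ± 0.12 over the other siRNAs (edgeR, adjusted p = 2.18e-13) and 1.11 over sip53 (edgeR, adjusted p = 2.44e-05). Its share was the highest of the 33 siRNAs, with siKmt2e next at 3.66%, and only Day03 of the time course was above it among all 42 conditions. Gm26917, which ends 616 bases before it on the same strand, was at a log2 fold change of -0.03 over nt and -0.10 over Mock (edgeR, adjusted p = 0.984 and 0.890).

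Of the 11 higher genes, 6 are repeat genes made of the same unit. A search of the transcripts of all tested genes for tandem repeats with a spacing of 220 to 240 bases found 16 genes. Of these, 13 were kept because they share a 16-base word with Gm10717, the member with the smallest adjusted p against nt. The set was therefore not chosen apart from that comparison. Most of the 13 lie in a cluster at the start of chromosome 9 and others on chromosomes 2 and 14. Their spacing is that of the mouse major satellite, which makes up pericentromeric heterochromatin. The unit is shown because it is what the 13 genes share. It is taken from Gm26870, at chr9:3024048-3024281 on the minus strand of GRCm38, and capitals mark the 210 of 234 bases covered by 12-base words that at least 11 of the 12 other genes also hold.
repeat unit of Gm26870: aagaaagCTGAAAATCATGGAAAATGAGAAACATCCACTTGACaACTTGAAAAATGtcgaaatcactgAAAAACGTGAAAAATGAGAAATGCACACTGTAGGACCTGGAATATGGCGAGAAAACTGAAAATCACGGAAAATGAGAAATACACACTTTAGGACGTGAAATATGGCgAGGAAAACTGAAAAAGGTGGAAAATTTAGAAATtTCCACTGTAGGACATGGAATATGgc
The 3′ end of Gm10717 shares at least 50% of its words with 8 other genes and that of Gm17535 with 5, so their locus is uncertain. Gm10800, Gm10801, Gm21738 and Gm26870 have no such copy among annotated transcripts. Repeats outside the annotation were not searched, so the locus of these genes is not settled either. Gm26870 lies antisense over several of the others. The 13 genes share sequence, so they are not independent of each other, and they were also summed.

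The sum took 2.71, 2.46 and 2.66% of counts in the libraries labelled siHdac1 and 1.41, 1.11 and 1.40% in nt. Every library labelled siHdac1 was above every nt library. The log2 fold change was 0.95 ± 0.18 over nt (edgeR, adjusted p = 0.000138) and 0.67 ± 0.12 over the other siRNAs (edgeR, adjusted p = 2.55e-05). Mock libraries, however, ranged from 1.57 to 2.70% and sip53 libraries from 1.92 to 2.45%. Over Mock the log2 fold change was 0.20 ± 0.16 with an adjusted p of 0.583, and over sip53 0.15 ± 0.18 with an adjusted p of 0.783.

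The mean share in siHdac1 ranked 3 of the 33 siRNAs, after siEny2 at 3.94% and siPrkdc, whereas nt ranked 32 of all 42 conditions with a mean of 1.31 ± 0.17% (SD, n = 3). Against nt all 13 genes had a positive log2 fold change, with a median of 1.02, and edgeR called 6 (0.365% of tested genes were called higher), DESeq2 7 and limma on the deposited log2 values 2. Against the other siRNAs all 13 were again positive, with a median of 0.80, and edgeR and DESeq2 called 8 (1.10% of all genes tested were called higher by edgeR) and limma 5. Against Mock 6 of 13 were positive, the median was -0.12 and edgeR, DESeq2 and limma called 0, with 1 at an unadjusted p under 0.05 by each. Gm10717 was at 1116, 1331 and 1527 CPM against 583, 389 and 596 CPM in nt (edgeR, log2 fold change 1.35 ± 0.24, adjusted p = 0.000100) and 877 to 1511 CPM in Mock. Gm10800 was at 7393, 6211 and 7504 CPM against 3614, 2946 and 3823 CPM in nt (edgeR, 1.02 ± 0.19, adjusted p = 0.000100; limma, adjusted p = 0.0609) and 4696 to 7966 CPM in Mock.

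**Figure D4:**
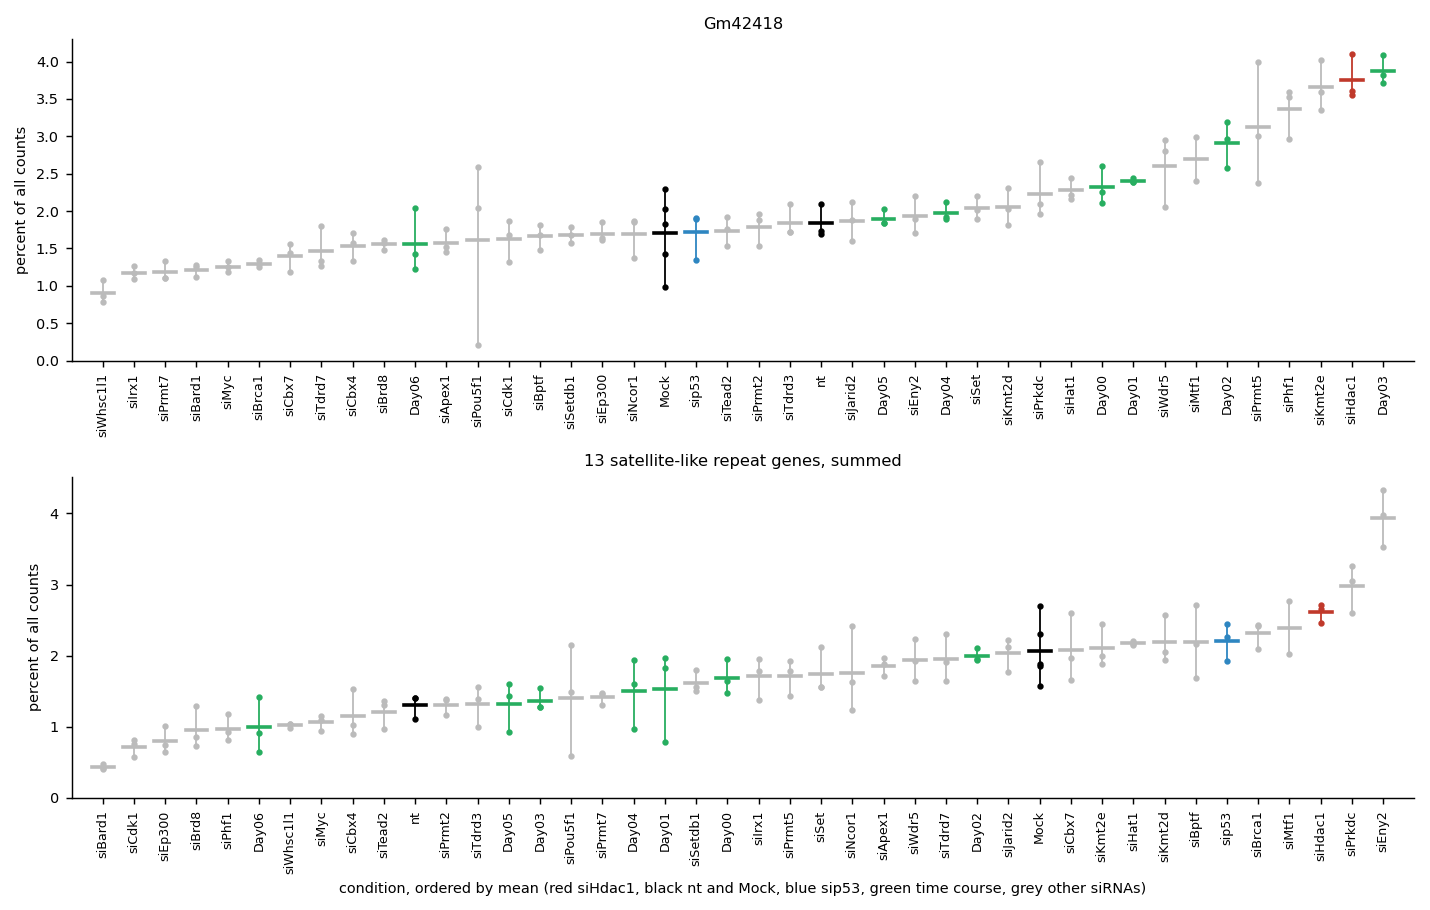
Percent of all counts (vertical axes) taken by Gm42418 (top) and by the 13 satellite-like repeat genes (bottom) in each of the 42 conditions, ordered by mean; points are libraries, thin lines the range and thick lines the mean. siHdac1 (red) is above every nt and Mock library (black) for Gm42418, and for the repeats it is above nt but overlaps Mock.

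Differences from Mock and from the other siRNAs named further genes. The pseudogene Rpl27-ps3 was higher than both (edgeR, log2 fold change 2.90 ± 0.76 over Mock, adjusted p = 0.00977, and 1.72 ± 0.47 over the other siRNAs, adjusted p = 0.0194), at 174, 136 and 162 CPM. It shares its 3′ end with Rpl27 and other copies, so the locus is uncertain. Denr, a factor of translation re-initiation, and Gm9844, a copy of thymosin Tmsb10, were higher than Mock by 2.18 ± 0.64 and 2.03 ± 0.62 (edgeR, adjusted p = 0.0324 and 0.0478). The histone gene Hist1h2ae and the noncoding host gene Snhg20 were lower than Mock by -2.68 ± 0.81 and -1.93 ± 0.47 (edgeR, adjusted p = 0.0408 and 0.00306). Snhg20 was at 34.9, 136 and 81.2 CPM against 313 to 515 CPM in Mock. Over the other siRNAs, the pseudogene Gm4760 and Emc1, of the membrane protein insertion complex, were the highest of the 33 siRNAs with log2 fold changes of 2.23 ± 0.62 and 1.91 ± 0.53 (edgeR, adjusted p = 0.0229 and 0.0222). Tbca, a tubulin-folding cofactor, was the lowest, at 0, 102 and 227 CPM against a median of 321 CPM (edgeR, -1.23 ± 0.33, adjusted p = 0.0180). Each gene named in this paragraph lost at least 1 of these calls when siHdac1 replicate 1 or 2 was left out.

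Of 13 tested mitosis genes edgeR and DESeq2 called 2 higher than the other siRNAs (1.10% of tested genes were by edgeR), Mki67 and Cenpe, and limma called these and Ccna2 over 20 genes, 2 higher and 1 lower. Mki67, a protein of the surface of mitotic chromosomes, was at 558, 273 and 146 CPM against 81.7 to 194 CPM in nt and 49.6 to 129 CPM in Mock. It was called higher than Mock (edgeR, log2 fold change 1.62 ± 0.46, adjusted p = 0.0227) and the other siRNAs (edgeR, 1.36 ± 0.34, adjusted p = 0.00736), and over nt it was at 1.07 with an adjusted p of 0.232. DESeq2 did not call it against Mock and called Top2a higher there. By limma on the deposited log2 values both Mki67 and Top2a were higher than Mock, and Cenpe was higher than nt. Cenpe, a kinetochore motor, was higher than the other siRNAs by 1.21 ± 0.32 (edgeR, adjusted p = 0.0136). The list median was 0.34 over nt and 0.80 over Mock. The histone variant H2afz moved the other way against Mock, at 942, 1638 and 1852 CPM against 2472 to 3315 CPM (edgeR, -0.94 ± 0.17, adjusted p = 1.93e-05).

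Genes of fibroblast identity and pluripotency were looked at as lists. With 1.06% of all genes tested called against nt, lists this small would hold few calls. Of 25 fibroblast and mesenchymal genes 19 were tested, and edgeR and DESeq2 called 0 against nt (median 0.03, 3 and 2 at an unadjusted p under 0.05), where limma on the deposited log2 values called Sparc higher and had 10 of 24 at an unadjusted p under 0.05, against 1341 of 10568 over all genes. By edgeR only S100a4 of this list was called against Mock, at -1.38 ± 0.35 (adjusted p = 0.00536), where 2.16% of all genes tested were lower, and limma called S100a4 and Twist2 lower. Of 24 pluripotency genes 3 passed the filter, and edgeR and DESeq2 called 0 of them against nt, with 0 at an unadjusted p under 0.05 by either. limma on the deposited log2 values covered 19 and called 0 against nt, with 1 at an unadjusted p under 0.05, and Apela, which encodes a peptide hormone, lower than the other siRNAs. Against Mock, edgeR, DESeq2 and limma called 0 pluripotency genes, and limma had 6 of the 19 at an unadjusted p under 0.05. Against sip53, edgeR called 32 genes (1.06%), 14 higher (0.465%) and 18 lower (0.597%), and 17 without siHdac1 replicate 1. Of the lower genes, Col1a1 and Dcn, which encode a collagen chain and decorin of the extracellular matrix, belong to the 19 tested fibroblast and mesenchymal genes (edgeR, log2 fold change -1.50 and -1.62, adjusted p = 0.00694 and 0.00154). The median of that list over sip53 was -0.87, with 2 called lower and 0 higher. The Rpl9 copies Gm7206 and Rpl9-ps7 had 1 count each in the libraries labelled siHdac1 and 32 and 29 in sip53, ratios of 0.0412 (exact 95% counting interval 0.00101 to 0.247) and 0.0455 (0.00111 to 0.274), and edgeR called both lower (adjusted p = 0.00423 for both). They share most of their 3′ ends with Rpl9, so the locus is uncertain. Summed over the 5 Rpl9 copies there were 2, 1 and 8 counts in the libraries labelled siHdac1 and 22, 27 and 62 in sip53, a ratio of 0.131 (0.0634 to 0.243). Here sip53 stood apart, at 598 CPM of all counts against 178 in nt, 129 in Mock and 159 in the other siRNAs, and the ratio was 0.440 (0.207 to 0.853) over nt and 0.607 (0.278 to 1.23) over Mock. Diaph2, a formin, and Anp32e, a histone chaperone of the H2A.Z variant, were higher by 3.17 ± 0.90 and 2.27 ± 0.62 (edgeR, adjusted p = 0.0471 and 0.0372), and both calls were lost without siHdac1 replicate 1 or without siHdac1 replicate 2.

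The called genes were set beside the time course. Between Day03 and Day06 of untransfected cells 480 genes changed (15.9%), with 7.93% higher and 8% lower on Day06 (239 and 241 genes, but 186 and 340 with RLE size factors and 137 and 291 with DESeq2), and 14 of the 32 called genes were among them. Of 10 lower genes 1 also fell from Day03 to Day06, and of 4 higher genes 0 rose. Gm42418, for example, fell by 1.51 on the log2 scale from Day03 to Day06, and Npm1 rose by 0.80. A score, the mean log2 CPM of the genes rising from Day03 to Day06 minus that of the genes falling, was 0.516, 0.698 and 0.854 in the libraries labelled siHdac1, 0.799, 0.860 and 0.910 in nt, and 0.640 to 0.944 in Mock. The ranges overlap, each library labelled siHdac1 was below the nt library of its pool, and the mean of 0.690 ranked 22 of the 33 siRNAs. The score does not order the days: it was -0.95 on Day00, 0.09 on Day01, -0.37 on Day02, -1.54 on Day03, 0.19 on Day04, 0.42 on Day05 and 0.82 on Day06. siPou5f1, whose target is Oct4, had the highest mean of the siRNAs at 1.285.

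Depth and transcript length moved with these differences. Depth was 0.449, 0.428 and 0.508 of that of the nt library in the same pool. With every deeper library thinned to the siHdac1 library of its pool, 31 genes were called against nt, 13 higher and 18 lower. Transcript length also moved with the fold change. Across 2965 tested genes with a length, which are not independent replicates, the median log2 fold change over nt was -0.19 below the lower quartile of length and 0.16 above the upper quartile, and over Mock -0.25 and 0.22. The lower genes had a median transcript length of 852 bases, the higher genes 775 and all tested genes 2804. The part of transcript length in these calls was not tested.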

How the data were processed

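RNA was profiled in bulk by CEL-Seq2 as 3 sequenced pools, each holding every library of 1 replicate, with conditions taken from column names. Reads were aligned by the authors to mm10 with Bowtie2, and UMIs were counted by the CEL-Seq2 pipeline on GENCODE vM13; the strand setting of the counting is not given in the sources used here. The deposited counts are UMI-corrected and unnormalized. A deposited table on the log2 scale, which the authors scaled by size factors and cleared of the batch, served 1 alternative only.

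Members, lists and the sequence rules were chosen with earlier results of these data known. The analysis used edgeR 4.0.16 with TMM scaling and filterByExpr by condition, on 127 of 129 libraries (29656 to 235292 counts; the 2 left out held 6403 and 7981), with a term per condition and the replicate number as a block. It tested 3013 of 50507 genes with 83 residual degrees of freedom. P-values were adjusted by Benjamini-Hochberg with a threshold of 0.05, and SEs were derived from the test statistic. CPM refer to the library size of tested genes after TMM, unless said to be of all counts, and shares refer to all counts. Count ratios have exact 95% intervals, which, like the limit of 3 counts, cover counting error only. Genes were named if among the 12 largest changes in each direction against nt, or the 3 largest against each other reference, with at least 50 CPM and 1 sign in all replicates, or if called in a list or a class I deacetylase; other genes named were chosen after their values were seen. Libraries of the same number share a pool by the labels, and their deviations from the condition mean correlated with a median r of 0.0981 (0.0860, 0.0810 and 0.245 for siHdac1 and nt), against -0.0685 for other pairs. The Mock column of replicate 3 among the log2 values was matched to a library by correlation (r = 0.961 against 0.0236).

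Transcripts, lengths and positions came from GENCODE vM21 on GRCm38, of which mm10 is the same build. Copies were genes holding at least 50% of the 31-base words in the last 400 bases of a transcript; summing them was added after the data were seen. Alternatives used DESeq2 1.42.0 and limma 3.58.1. On simulated counts for siHdac1 against nt (2403 genes), the test recovered 25% of changes of 2-fold and 74.4% of changes of 4-fold, and 4.82% of its calls were false. Apart from the set changes, the simulation gave every condition the same mean profile. It held a trended dispersion only and no difference between pools, so these shares may not hold for the real libraries.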

Additional observations from a re-analysis of the deposited data

Results flagged for a closer look

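Rps27a-ps1 in the Mock libraries was set apart by 1 library, Mock replicate 3, at 1045 CPM, where the nearest of the other 4 Mock libraries was at 548 CPM. The gap was 0.798 of the whole range, above the critical value of 0.71 for 5 samples. Of 56 quantities looked at in this way 1 was found, and how many such gaps 56 looks would give was not tested. Mock replicate 3 is the only Mock library of its pool, and the rule takes no account of pools.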

How the results depend on the processing

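Among the named genes no alternative reversed a called direction. RLE size factors kept each count of calls within 1.5 times, shifting the all-gene median by more than 0.1 (log2) only for Day06 against Day03 (0.01 to -0.12); they turned the split against the other siRNAs to 37 higher and 27 lower, and DESeq2 to 64 and 28. For siHdac1 against nt, the 32 calls became 49 with no filter on low counts (5 higher, 44 lower), 89 with limma on the deposited log2 values of 10568 genes, 4 with no replicate block, 56 with only the libraries compared (28 higher, 28 lower), 84 when nt and Mock were joined as 1 control and 19 with copies summed, which merges called genes by construction. Against Mock, limma gave 236 calls, 121 higher and 115 lower, and no replicate block 45. Against the other siRNAs these alternatives gave 372 and 26. Against sip53 they gave 105 and 15, no filter gave 18 and only the libraries compared 57. Day06 against Day03 had 206 calls with no filter, 291 with limma and 285 with no replicate block. Leaving out 1 replicate or library gave 11 to 37 calls against nt, 24 to 87 against Mock, 15 to 51 against the other siRNAs, 8 to 26 against sip53 and 191 to 299 for Day06 against Day03. The cause of these changes was not tested. Of single genes against nt, Npm1 and Gm6204 kept their call under all 17 alternatives, and Gm42418, Gm10717 and Prdx1 each lost it under 1. Gm17535 was called under 3 of 16, B230219D22Rik under 6 of 18 and Mrpl20 under 5 of 18. Left out 1 at a time, libraries labelled siHdac1 ended no call against nt for the summed copies of Npm1, Rps14, Rpl11 and Prdx1 or the summed repeat genes; this was chosen after seeing the data. Low depth limits which changes of low genes could be seen: in the libraries labelled siHdac1, 3 counts are 41.3 to 89.0 CPM of all counts.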
